A study of Homo sapiens with 4 samples.

Results

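The 4 HOX gene clusters were examined for open chromatin in human pancreatic progenitors kept for 7 days with the vehicle DMSO or with I-BET151. HOX genes encode homeodomain transcription factors that assign position along the head-to-tail axis, and each cluster lists its genes in the order in which they are used along the body, from the anterior paralog groups 1 to 3 through the central groups 4 to 8 to the posterior groups 9 to 13. In cells that do not use them the clusters are commonly held silent by Polycomb repression, and retinoic acid is known to open them from the anterior end. CTCF, a protein that folds chromatin into loops, divides the clusters into domains, and PBX and MEIS proteins bind DNA together with HOX proteins.

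Clusters were taken from the first to the last of their HOX genes in GENCODE v44 plus 20 kb on each side, which gave 64 regions among the 164301 regions formed by merging the peaks of all libraries. HOXA held 22 of them, HOXB 21, HOXC 9 and HOXD 12. The cluster spans rest on the 39 HOX genes of the annotation, 38 of which are described individually, and the other one was not analysed here. Regions are numbered along the chromosome within each cluster, so that A10 is the tenth region of HOXA.

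The cells were derived from MEL1, an established human embryonic stem cell line that the study's methods give as MEL1 INSGFP/W, a line with a GFP reporter at the insulin gene shared by all libraries, and were grown in EF6 medium, which holds B27, EGF at 50 ng/ml, bFGF at 10 ng/ml and the TGF-β receptor inhibitor 616452 at 10 μM. DMSO libraries received the vehicle, and I-BET151 libraries received 1 μM I-BET151, an inhibitor of the BET bromodomain proteins that bind acetylated histones. ATAC-seq was run on 50000 cells per library, with 2 libraries per condition, all from the same line, and the labels do not say whether the libraries came from separate cultures, so that their spread may be technical. In ATAC-seq the transposase Tn5 cuts accessible DNA, and a peak marks a place where cuts exceed the local background.

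The lists held 82568 and 38295 peaks in DMSO replicates 1 and 2 and 84995 and 111324 peaks in I-BET151 replicates 1 and 2. Their estimated depth ran the other way, with 38.7 and 36.6 M reads in DMSO and 12.5 and 16.0 M in I-BET151. The median fold enrichment of all regions was 3.88 and 4.09 in the DMSO lists and 5.66 and 6.04 in the I-BET151 lists, so the contrast between peaks and background differed between the conditions over the whole genome. The part of this shift in the HOX results was not tested. Promoters of pancreatic progenitor markers were called for 7 to 9 of 10 genes in each library, with PDX1 called in both I-BET151 libraries but neither DMSO library and PTF1A in none. Promoters of 22 genes of other cell types were called for 4 to 8, and those of POU5F1 and NANOG were called in none.

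Before the values, the DNA of the regions that the results turn on is shown on the plus strand of hg38, as stretches of up to 200 bases around the summit with annotated UTR bases left out. The first group holds the gained regions (a peak in both I-BET151 libraries and in neither DMSO library) with a match to a searched motif, and capitals mark the match. A5, in an intron of HOXA3 between HOXA2 and HOXA4 (chr7:27113489-27113624), holds a retinoic acid response element of the DR5 type and, further right, a HOX-PBX site. B6, in an intron of HOXB3 (chr17:48562203-48562402), B13, upstream of HOXB8 (chr17:48618744-48618943), and D4, upstream of HOXD12 (chr2:176097693-176097892), each hold a CTCF consensus with 1 mismatch.
A5: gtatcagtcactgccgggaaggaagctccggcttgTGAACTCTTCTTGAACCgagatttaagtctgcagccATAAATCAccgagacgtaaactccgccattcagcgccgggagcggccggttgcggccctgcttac
B6: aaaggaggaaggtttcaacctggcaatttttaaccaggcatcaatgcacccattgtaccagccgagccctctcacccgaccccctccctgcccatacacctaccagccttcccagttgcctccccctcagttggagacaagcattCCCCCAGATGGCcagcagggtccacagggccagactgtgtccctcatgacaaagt
B13: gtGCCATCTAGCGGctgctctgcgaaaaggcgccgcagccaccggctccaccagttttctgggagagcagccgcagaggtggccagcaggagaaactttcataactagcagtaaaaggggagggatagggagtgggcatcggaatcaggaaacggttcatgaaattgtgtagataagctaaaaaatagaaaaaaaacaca
D4: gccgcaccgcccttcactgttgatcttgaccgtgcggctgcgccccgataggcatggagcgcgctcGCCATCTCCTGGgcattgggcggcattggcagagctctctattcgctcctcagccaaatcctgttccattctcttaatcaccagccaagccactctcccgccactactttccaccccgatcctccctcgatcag

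The second group holds regions at HOX promoters, with CpG dinucleotides in capitals. A11 (chr7:27142893-27143092) and A12 (chr7:27143701-27143900) are neighbours at the start of HOXA5, C5 has its summit in coding sequence of HOXC5 (chr12:54033416-54033615), and D12 holds the HOXD1 promoter (chr2:176188531-176188667). They carry 11, 18, 15 and 18 CpG dinucleotides in the stretches shown.
A11: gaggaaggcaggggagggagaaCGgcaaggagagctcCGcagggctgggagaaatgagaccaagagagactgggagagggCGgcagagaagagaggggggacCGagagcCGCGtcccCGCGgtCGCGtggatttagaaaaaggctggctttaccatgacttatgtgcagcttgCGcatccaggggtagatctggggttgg
A12: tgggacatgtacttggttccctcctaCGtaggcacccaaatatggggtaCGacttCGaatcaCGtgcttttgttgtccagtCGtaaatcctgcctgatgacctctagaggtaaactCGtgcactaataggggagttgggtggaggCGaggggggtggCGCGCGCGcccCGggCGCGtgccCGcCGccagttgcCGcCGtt
C5: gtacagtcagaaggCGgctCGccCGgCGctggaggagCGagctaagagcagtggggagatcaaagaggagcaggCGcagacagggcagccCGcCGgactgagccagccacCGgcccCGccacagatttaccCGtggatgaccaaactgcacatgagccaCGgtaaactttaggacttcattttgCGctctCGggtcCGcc
D12: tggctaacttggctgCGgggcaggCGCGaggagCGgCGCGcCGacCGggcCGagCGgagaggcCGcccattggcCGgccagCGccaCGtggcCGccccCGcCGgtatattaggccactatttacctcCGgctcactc

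The HOX regions were rich in such dinucleotides as a group. Within 200 bases around the summit their median was 11 CpG and 60.8% G+C, against 2 CpG and 48.0% over all merged regions. The highest cluster median was 14 CpG in HOXD and the lowest 8 in HOXB. The CTCF consensus with up to 1 mismatch, searched on both strands in the same windows, was found in 3 of 64 HOX regions (4.69%) and in 7.11% of all regions, and without a mismatch in 0 of 64 and 1.79%. All 3 HOX matches lay in gained regions, and over the whole genome 13.1% of gained regions held such a match. The DR5 element was found in 1 of 64 HOX regions and in 0.107% of all regions, the DR2 element in 0 of 64 and 0.141%. The HOX-PBX site TGATTNAT was found in 2 of 64 (3.12%), A5 and B1, and in 4.33% of all regions. B1, an intergenic region 16356 bp downstream of the HOXB1 start, was called in DMSO replicate 1 alone, with a pileup of 15 at percentile 47.0. Each match describes letters in the window and not a bound protein.

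More of the HOX regions carried a peak with I-BET151 than with DMSO. In DMSO 20 and 5 of the 64 regions were called, and in I-BET151 28 and 46 were. The groups did not overlap, with a mean difference of 24.5 regions, and the exact permutation test over libraries (two-sided) gave p = 0.333, the smallest that 2 against 2 libraries allow. All merged regions showed the same order and no overlap either, with 47.9% and 22.9% of them called in DMSO and 49.2% and 67.7% in I-BET151. DMSO replicate 2, the shortest list, had the fewest HOX regions, and I-BET151 replicate 2, the longest list, had the most. The same-numbered libraries differed by 8 regions in the replicate 1 pair and by 41 in the replicate 2 pair. With the 38295 strongest peaks taken from every list, the counts fell to 4 and 5 in DMSO and 7 and 6 in I-BET151, so the gap shrank to 2 regions when the list lengths were made equal.

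HOXA had the densest calls. It held 4.08 and 1.36 regions per 100 kb in DMSO and 7.48 and 12.2 in I-BET151, while the genome-wide density was 2.55, 1.22, 2.62 and 3.60 in the same order of libraries. HOXD went from 2.17 and 0.724 per 100 kb to 5.07 and 5.79. HOXB had 3.75 and 0.416 in DMSO and 2.91 and 6.24 in I-BET151, so its groups overlapped, and its exact permutation p was 0.667. HOXC stayed the sparsest cluster in I-BET151, with 1.27 and 0.636 per 100 kb in DMSO and 1.91 and 3.18 in I-BET151. The plot of called regions per 100 kb shows these values beside the whole genome.

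**Figure D1:**
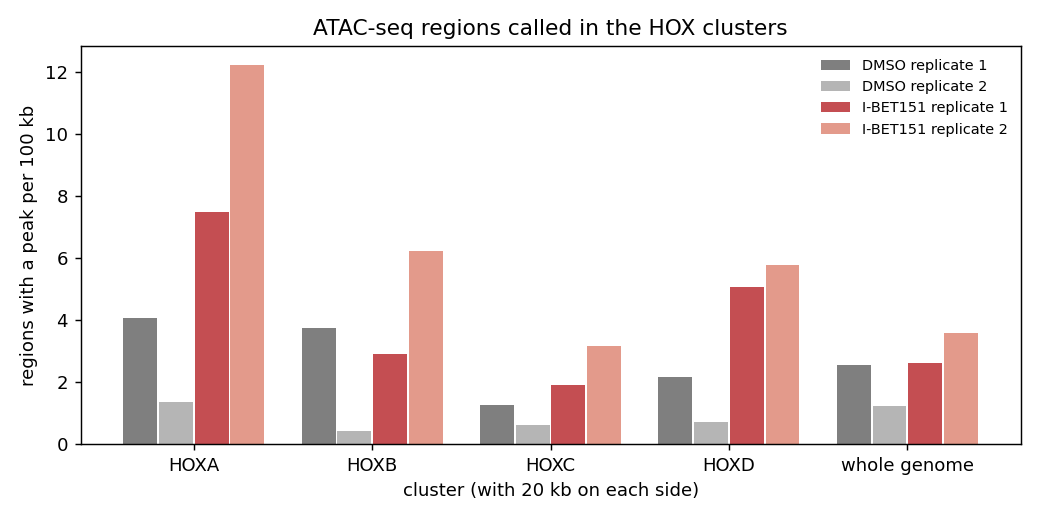
Number of regions with a peak per 100 kb (vertical axis) in each HOX cluster with 20 kb on each side and in the whole genome; bars are the 4 libraries, 1 value each, with no error bar. The I-BET151 bars of HOXA reach 7.48 and 12.2, above 2.62 and 3.60 for the genome, and in HOXB the DMSO and I-BET151 bars overlap.

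Stretches without any peak remained between neighbouring regions of each cluster. The longest of these in HOXC covered 49157 bp and took in the start sites of HOXC11, HOXC10 and HOXC9, 3 posterior genes. In HOXD 34028 bp with the canonical starts of HOXD4 and HOXD3 held none, and in HOXA 15674 bp with the start of HOXA11. Another annotated start of HOXD3 lies outside that HOXD stretch and had a peak in both I-BET151 libraries. The longest in HOXB, 35096 bp next to HOXB13, held no HOX start. The map of the clusters shows these stretches as empty columns.

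**Figure D2:**
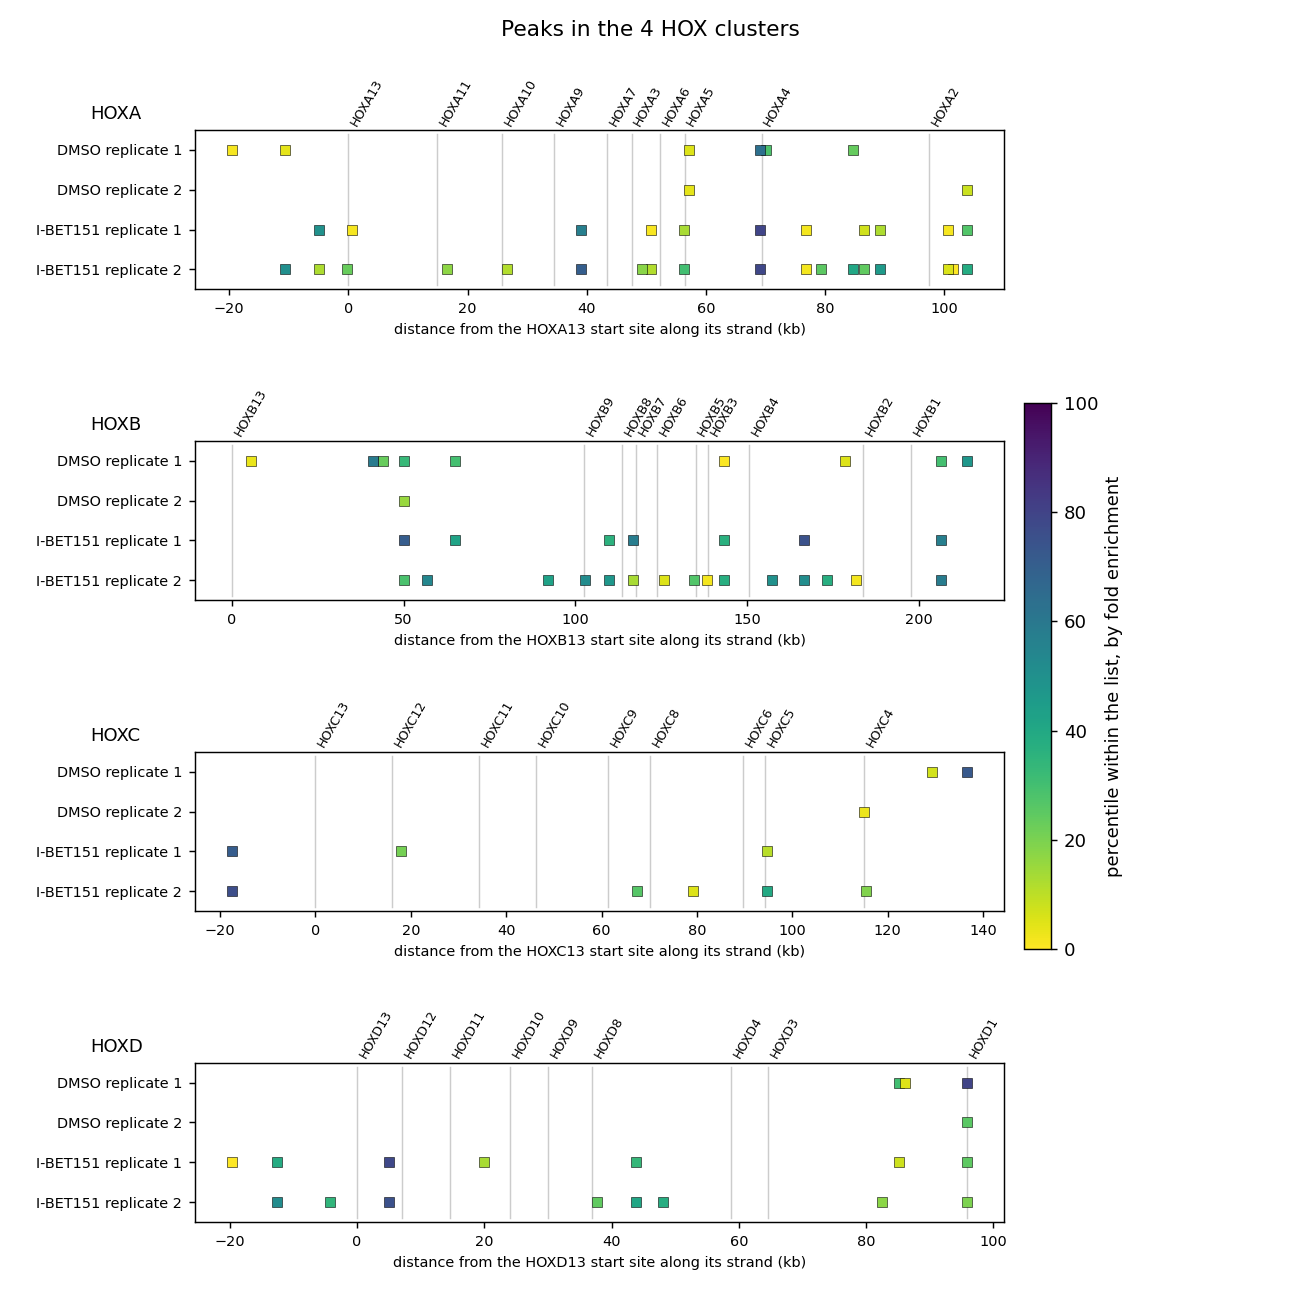
Peaks in the 4 HOX clusters: the horizontal axis is the distance in kb from the start of the paralog group 13 gene along its strand, each row is a library, each square a region called there, and its colour the percentile of its fold enrichment within that library's list. Grey lines mark the canonical start sites of the 38 genes. DMSO replicate 2 has 5 squares in all and I-BET151 replicate 2 has 46, and the posterior part of HOXC from HOXC11 to HOXC9 is empty in every row.

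In mean percentile the HOX regions lay below all regions in every library. A percentile was given to each region from its fold enrichment among all regions of the same list. A region that was not called counted as 0, so the mean also reflects how many regions were called. The mean percentile over the 64 regions was 8.62 and 0.882 in DMSO and 14.5 and 23.1 in I-BET151. Over all merged regions it was 23.9 and 11.5 in DMSO and 24.6 and 33.8 in I-BET151. The mean difference between conditions was 14.0 for the HOX regions (exact permutation p = 0.333) and 11.5 for all regions. In the replicate 1 pair the HOX mean rose by 5.84 points where all regions rose by 0.653, while in the replicate 2 pair the values were 22.3 and 22.4. Among called regions only, the median percentile of HOX regions reached at most 30.3, in I-BET151 replicate 1, and the highest of any region was 80.0.

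Mean percentiles were also taken by paralog group, with each region given to the gene of its nearest canonical start. The canonical starts of HOXA3 and HOXB3 lie beyond HOXA6 and HOXB4, so regions near them counted in groups 1 to 3. Some regions in introns of HOXA3 and HOXB3, such as A8 and B6, counted in groups 4 to 8. A region at another start of HOXD3 also did. A8, B6 and this HOXD3 region are among the gained regions that are counted for groups 4 to 8 below. The means were not repeated with other starts. For regions nearest to genes of groups 1 to 3 the mean percentile was 12.3 and 1.87 in DMSO and 9.67 and 19.2 in I-BET151, which overlapped (exact permutation p = 0.667). For groups 4 to 8 it was 7.35 and 0.307 in DMSO against 15.2 and 25.2, and for groups 9 to 13 it was 6.99 and 0.704 against 17.6 and 24.1, both at an exact permutation p of 0.333 and without overlap, as was also the case for all merged regions above. Whether the groups differ from each other was not tested.

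A region was counted as gained where both I-BET151 libraries and neither DMSO library had a peak, and as lost in the reverse case. Of the 64 HOX regions, 16 were gained and 1 was lost. That is 25.0% gained and 1.56% lost, beside 17.0% and 2.37% of all merged regions. HOXA held 8 gained regions, HOXB 3, HOXC 2 and HOXD 3. By paralog group of the nearest canonical start, with the limit given above, 3 of 18 anterior, 9 of 24 central and 4 of 22 posterior regions were gained. A further 22 regions were called in I-BET151 replicate 2 alone and 10 in DMSO replicate 1 alone, so 57.8% of HOX regions came from 1 list, beside 51.8% of all regions. Only 2 of 64 (3.12%) were called in every list, against 15.6% of all regions, and both are described below.

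The strongest gained regions lay outside the promoters. D4, 2002 bp upstream of HOXD12 in intergenic DNA, had a pileup (the number of reads over the summit) of 23 in I-BET151 replicate 1 and 30 in replicate 2, and its fold enrichment of 8.22 and 8.55 placed it at percentiles 78.2 and 75.2 of those lists. HOXD12 belongs to the posterior genes that pattern the distal limb and the genital region. C1, an intergenic region 17559 bp upstream of HOXC13, the most posterior HOXC gene, had pileups of 13 and 21 and percentiles of 70.7 and 76.5.

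B6, in the HOXB3 intron that also belongs to the antisense RNA HOXB-AS3, had pileups of 34 and 35, the highest in HOXB, and percentiles of 74.7 and 51.4. A15 lay 4311 bp upstream of HOXA7, between HOXA7 and HOXA9, with pileups of 15 and 26 and percentiles of 57.2 and 70.7. D2 fell in the coding sequence of EVX2, a homeobox gene beside HOXD13, with pileups of 11 and 18 and percentiles of 39.1 and 51.6. These 5 regions were picked by the lower of their 2 fold enrichments, so their place above the weakest gained regions follows from that choice. In replicate 1 D2 lay below B12 (58.0) and A20 (49.7). The percentiles of all 16 ran from 0.976 to 78.2 in replicate 1 and from 1.63 to 76.5 in replicate 2. Of the 16, 4 (A15, B6, C1 and D4) were also gained at a stricter threshold (−log10 p of 10 or more), and 3 (A15, B6 and D4) with equal numbers of peaks per list. At the stricter threshold that was 16.0% of the 25 HOX regions left, below the 23.3% of all regions. With equal numbers it was 21.4% of 14 HOX regions, above the 9.19% of all regions.

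Both other gained regions with a motif match had lower percentiles. B13, 3552 bp upstream of HOXB8, had pileups of 11 and 17 and percentiles of 36.2 and 46.9. A5 had pileups of 17 and 35 at percentiles of 7.41 and 24.4, and its local background, over which the fold enrichment is taken, was 4.18 and 4.62 times that of the genome. Its neighbour A4 had a pileup of 43 in I-BET151 replicate 2, the highest of any HOX region, at percentile 45.9.

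Few of the HOX promoters carried a peak. A peak within 1 kb of the canonical start site was found for 3 of 38 HOX genes in each DMSO library (7.89%) and for 6 (15.8%) and 12 (31.6%) in the I-BET151 libraries. The same shares over 20033 protein-coding genes were 60.6% and 55.7% in DMSO and 66.2% and 70.3% in I-BET151. No library had a peak at 26 of the 38 HOX promoters (68.4%), against 26.2% of all genes. The number of HOX promoters did not overlap between conditions, with a mean difference of 6 and an exact permutation p of 0.333. With equal numbers of peaks per list the order turned, to 2 and 3 promoters in DMSO and 2 and 1 in I-BET151.

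HOXA5 and HOXD1 were the only HOX promoters called in all 4 libraries (5.26%, against 53.0% of all genes). HOXA4 was called in DMSO replicate 1 and both I-BET151 libraries, and HOXC4 in DMSO replicate 2 and I-BET151 replicate 2. HOXA13, HOXB7 and HOXC5 had a peak in both I-BET151 libraries and in neither DMSO library. These 3 of 38 make 7.89%, near the 7.19% of all genes with that pattern. No HOX promoter had the reverse pattern, which 0.374% of all genes showed. The promoters of HOXA10, HOXB3, HOXB5, HOXB9 and HOXD8 were called in I-BET151 replicate 2 alone.

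By paralog group the counts were small, and a difference between groups was not tested. Of 16 genes of groups 9 to 13, 0 were called in either DMSO library and 1 and 3 in the I-BET151 libraries, these being HOXA13, HOXA10 and HOXB9. Of 15 genes of groups 4 to 8, 2 were called in each DMSO library and 4 and 7 in I-BET151. Of 7 listed genes of groups 1 to 3, 1 was called in each DMSO library and 1 and 2 in I-BET151. HOX genes can start at several sites, and the canonical start of HOXA3 lies beyond HOXA6 and that of HOXB3 beyond HOXB4. The count was therefore repeated over all 105 annotated starts, which gave 3, 3, 8 and 15 of 38 genes and left 23 without a peak in any library. With all starts, 5 genes had a peak in both I-BET151 libraries and neither DMSO library, since HOXA3 and HOXD3, anterior genes, joined HOXA13, HOXB7 and HOXC5. The share of all protein-coding genes was not taken over all starts.

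**Figure D3:**
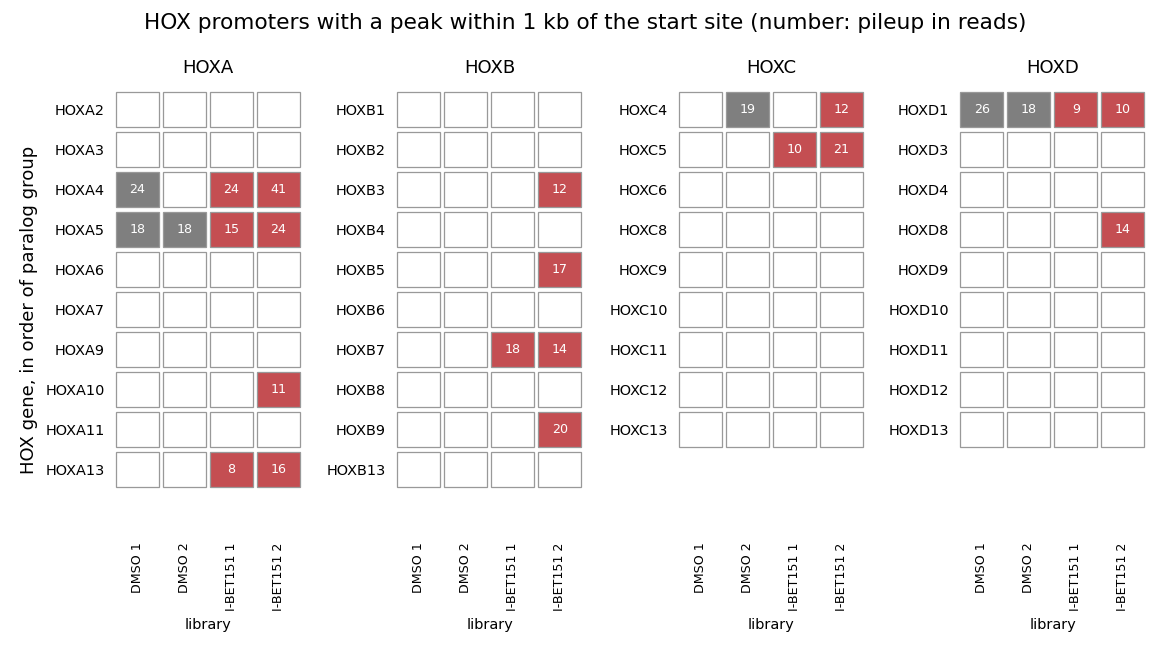
Promoter calls of the 38 HOX genes: rows are genes in order of paralog group, columns are the 4 libraries, a filled cell (grey for DMSO, red for I-BET151) marks a peak within 1 kb of the canonical start, and the number in it is the pileup in reads. HOXA5 and HOXD1 are filled in every column, and the posterior rows of HOXC and HOXD are empty.

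HOXA5, a central gene used in lung and foregut development, held the only lost HOX region and a gained one side by side. A11, in the HOXA5 gene 688 bp downstream of its start, had a pileup of 18 in both DMSO libraries and no peak in I-BET151, and its percentiles of 5.45 and 4.27 put it among the weakest peaks of both lists. A12, with its summit 120 bp upstream of the start, had pileups of 15 and 24 in the I-BET151 libraries and percentiles of 12.97 and 30.4. Only 32 bp separated A11 from A12, and their summits were 808 bp apart. When peaks under 200 bp apart were joined, both became 1 region called in all 4 lists, and the HOX clusters then held 15 gained and 0 lost regions. HOXC4 showed a like pair, with C6 called in DMSO replicate 2 and C7, 68 bp away, in I-BET151 replicate 2. Both I-BET151 peaks at HOXA13 were also separate regions, A18 at 645 bp downstream of the start in replicate 1 and A19 at 298 bp upstream in replicate 2.

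The gained promoter regions of HOXC5 and HOXB7 differed in which library was stronger. C5, 466 bp downstream of the HOXC5 start, had pileups of 10 and 21 and percentiles of 10.7 and 39.6. B12, with its summit 1105 bp upstream of HOXB7 and its edge within 1 kb, had pileups of 18 and 14 and percentiles of 58.0 and 13.1. HOXA4 had the strongest HOX promoter with I-BET151. A10, its summit 288 bp upstream of the HOXA4 start, had pileups of 24 in DMSO replicate 1, 24 in I-BET151 replicate 1 and 41 in I-BET151 replicate 2, at percentiles of 63.4, 79.5 and 78.9, and it was not called in DMSO replicate 2.

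D12 and B18 were the HOX regions called in every list, and so the only ones whose rank could be compared in all 4 libraries. D12, the promoter of HOXD1, an anterior gene, had pileups of 26 and 18 in DMSO and 9 and 10 in I-BET151, and percentiles of 80.0 and 25.6 in DMSO and 24.8 and 19.8 in I-BET151. DMSO replicate 1 stood apart, and the percentiles of the other 3 libraries lay between 19.8 and 25.6. On normal scores of ranks D12 was lower with I-BET151 by 1.33 ± 0.44 (SE, n = 2 libraries per condition), with an adjusted p of 0.0826 in limma over 25627 regions. Without DMSO replicate 1 it was lower by 0.78 (limma, adjusted p = 0.637). Its pileup per M estimated reads was 0.672 and 0.492 in DMSO and 0.722 and 0.625 in I-BET151, a difference of 0.22 on the log2 scale where the median of all shared regions was higher by 1.9, and relative to that median it was lower by 1.70 (limma, adjusted p = 0.0278).

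B18, in an intron of the long non-coding RNA LINC02086 between HOXB9 and HOXB13, had pileups of 13 and 12 in DMSO and 13 and 11 in I-BET151. Per M estimated reads these were 0.336 and 0.328 in DMSO and 1.04 and 0.688 in I-BET151. On the log2 scale B18 was higher by 1.35 (limma, adjusted p = 0.00277), where the median of all shared regions was higher by 1.9. Relative to that median the difference of B18 was -0.58 (limma, adjusted p = 0.331). Its percentiles were 32.9, 15.5, 70.7 and 28.9 in the order of the libraries, and its rank difference was 0.20 ± 0.476 (SE, n = 2 libraries per condition; limma, adjusted p = 0.827). In this fit 0 of 2 HOX regions passed an adjusted p of 0.05 and 1 of 2 had an unadjusted p under 0.05, which 24.9% of all shared regions had. After adjustment 3.41% of all shared regions were higher and 1.96% lower with I-BET151.

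The local background under the peaks was higher with I-BET151 in one part of HOXA. From the HOXA2 end of the cluster to the HOXA5 promoter, the background of the called peaks, which MACS2 takes from the surrounding 10 kb, had a median of 1.94 and 1.81 times the genome level in DMSO and of 3.34 and 2.98 times in I-BET151. These medians rest on 4 and 2 peaks in the DMSO libraries and 7 and 10 in the I-BET151 libraries. In the rest of the HOX clusters the medians were 1.42, 1.46, 1.54 and 1.53, although single regions there were as high, such as B6 with 3.79 and 3.17 in the I-BET151 libraries. Of the 10 HOX regions called in at least 1 library of each condition, the 3 in this part of HOXA had a higher mean background ratio in I-BET151, by 0.581 to 1.94, and the 7 elsewhere a lower one, with differences from -1.05 to -0.0165. In A6, for example, between HOXA2 and HOXA4, the ratio was 2.47 in DMSO replicate 1 and 4.41 in I-BET151 replicate 2. This stretch was picked after its values were seen, neighbouring peaks share their surroundings, and a library without a peak there gives no value, so these ratios are a description.

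**Figure D4:**
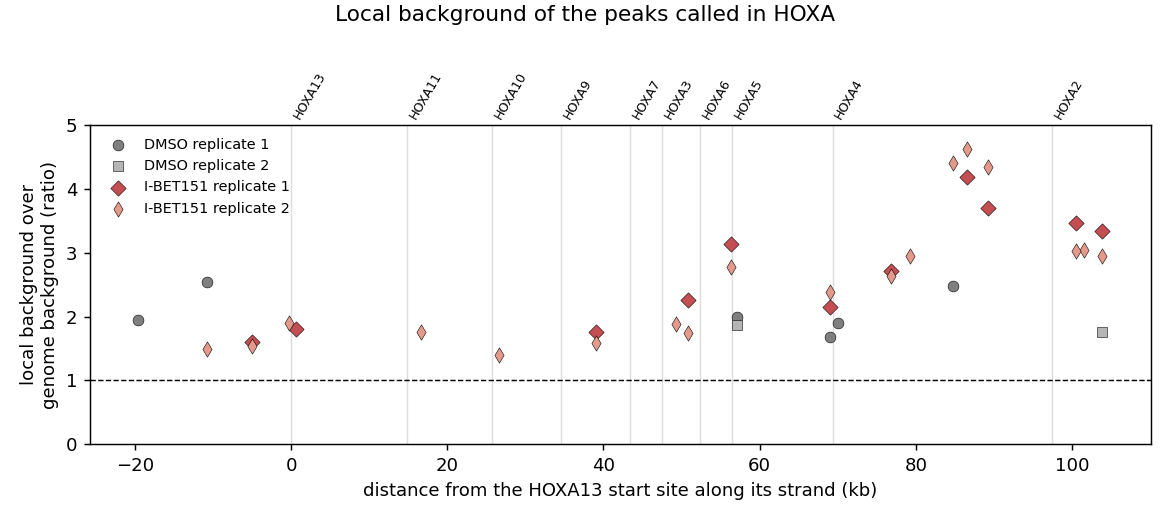
Local background of each called HOXA peak divided by the genome background of its library (vertical axis, ratio) against the distance in kb from the HOXA13 start along its strand; each point is a peak in 1 library, and the dashed line marks the genome level of 1. Between HOXA4 and HOXA2 the I-BET151 points reach 4.18 and 4.62 while the highest DMSO point there is 2.47. The few DMSO points there all come from replicate 1.

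Genes that act with or upstream of HOX genes were read from a list of 18. Promoters of 8 of 9 TALE cofactors (PBX, MEIS and PKNOX genes) were called in every library, the exception being MEIS3. MEIS1, a DNA-binding partner of HOX proteins, had promoter pileups of 27 and 27 in DMSO and 35 and 75 in I-BET151, at percentiles of 17.5, 23.6, 55.5 and 61.5. Of the CDX genes, which activate HOX genes in the posterior embryo, CDX2 was called in all libraries and CDX1 and CDX4 in none. Among retinoid receptors RARB was called in all libraries, RARG in both I-BET151 libraries with pileups of 15 and 24, and RARA in I-BET151 replicate 2 alone. None of the 3 CYP26 genes, whose enzymes degrade retinoic acid, had a promoter peak. Over this list of 18 genes 10 promoters (55.6%) were called in each DMSO library and 11 (61.1%) and 12 (66.7%) in I-BET151, near the shares of all protein-coding genes given above.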

How the data were processed

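ATAC-seq was performed on 4 libraries, 2 with DMSO and 2 with I-BET151, grouped by their labels. Bowtie2 (2.2.5) was used by the authors for alignment to hg38, duplicate and mitochondrial reads were discarded, and MACS2 (2.1.2) was run separately on every library without a control. The deposited lists give for each peak a score (a display value, not used), the fold enrichment over the local background as a ratio, the −log10 p-value, the −log10 q-value and the summit position. The deposited peaks reach a q-value of 0.05, beyond the p-value stated in the methods, and the shortest peak was 200, 233, 200 and 256 bp in the order of DMSO and I-BET151 replicates. Numbers of reads were not used as deposited: the pileup was solved from fold enrichment and p-value, with only whole numbers tried. For 100% of peaks in each list the solved pileup gave back the deposited p-value within a small tolerance. Depth was estimated from the genome background, the MACS2 genome size of 2700000000 bp and the shortest peak of each list, taken as the read extension. It scales with that size and inversely with that length. The methods state an extension of 200 bp, which would raise the estimated depth of both replicate 2 libraries and lower their pileups per M reads. A pileup of 5 to 43 reads carries counting error that the spread of 2 libraries does not show.

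Peaks on the autosomes and on X and Y were merged at an overlap of 1 bp. Start sites were those of the canonical transcripts of GENCODE v44, which is on the same build, and promoters extended 1 kb to each side. A region not called can still hold reads below the threshold. A two-sided exact permutation test was used for values given once per library, and ranks were compared with limma 3.58.1 in R 4.3.3 over all regions shared by the 4 lists, with Benjamini-Hochberg adjustment; other steps used Python 3.11.15, numpy 2.4.6 and pandas 2.3.3. Pileups, calls, motif matches and limma were checked on simulated data. Regions named in full were, by rule, the strongest region called in all lists of each cluster (none in HOXA and HOXC), gained or lost regions within 1 kb of a HOX start, the 5 other gained regions with the highest lower fold enrichment, and any called by limma. A3 to A6, A8, A10, A13, B1, B13, C6, C7 and A18 to A20 were named after their values or motif matches were seen, as were single genes of the cofactor list. The members and lists were chosen with earlier results of these data known.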

Additional observations from a re-analysis of the deposited data

How the results depend on the processing

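Equal numbers of peaks per list changed the most: the difference in mean percentile turned to -1.27 in HOXC and -0.29 in HOXD, that in HOXC regions called to -0.5, that in promoters called to -1, and gained regions fell from 16 to 3. Those 3 were 21.4% of HOX regions, against 9.19% of all regions. With −log10 p of at least 10 there were 4 gained (16.0%, against 23.3% of all regions) and 0 lost regions. The lost count was 0 with −log10 p of at least 5, 0 when peaks under 200 bp apart were joined and 2 when peaks had to cover 50% of a region (the thresholds of 5 and 200 bp were chosen after seeing the data). Leaving out 1 library gave 17 to 38 gained regions, the highest without I-BET151 replicate 1, and 1 to 11 lost regions, the highest without DMSO replicate 2. A rule over fewer lists is looser, so these counts could not fall below 16 gained and 1 lost and do not measure stability. The matching shares of all merged regions were not taken. The replicate 1 libraries alone gave 21 gained and 13 lost of the 64 HOX regions and 2 fewer HOXB regions with I-BET151 (-2), and the replicate 2 libraries alone gave 43 and 2. Over all 164301 merged regions the replicate 1 libraries gave 46196 gained and 44051 lost, and the replicate 2 libraries 79854 and 6306.

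In the rank test the number of HOX regions called was 0 to 1 when 1 library was left out, 1 for D12 without I-BET151 replicate 1 (adjusted p = 0.0105), 1 for D12 on centred log2 pileup per M reads, and 1 for B18 on the uncentred scale, where D12 reversed to 0.22. Leaving out 1 library gave D12 a difference from -1.89 (without DMSO replicate 2) to -0.78 (without DMSO replicate 1). B18 reversed to -0.58 on the centred scale and lay between -0.62 (without I-BET151 replicate 1) and 1.03 (without I-BET151 replicate 2) when 1 library was left out. With the replicate block the differences in called regions, mean percentile and promoters were again 24.5, 14.0 and 6. This was fixed by the design, since each block holds 1 library of each condition, so it is no check on these values. The rank test with the block called 0 HOX regions (D12, limma, adjusted p = 0.0606). Same-numbered libraries deviated in opposite directions over shared regions (r = -0.14), and crossed pairing as a block gave 1 HOX region and 1985 higher and 1567 lower regions in all, against 875 and 503. The causes were not tested. No HOX region was called in all 4 lists with −log10 p of at least 10 or with equal numbers of peaks, so the rank test gave no value there.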
